A study of Caenorhabditis briggsae with 12 samples.

Results

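The comparison described here sets adults on day 3 of adulthood against adults on day 1 in the nematode Caenorhabditis briggsae, whose hermaphrodites fertilise themselves as those of its relative C. elegans do. It uses 6 of the 12 RNA-seq libraries of the series: replicates 1, 2 and 3 of day 3 and replicates 1, 2 and 3 of day 1. The members were taken from the library titles. Both groups are whole hermaphrodites of AF16, the wild-type laboratory strain, grown at 20 °C on E. coli OP50. Age is the only difference between the days that the labels name. Ages were matched by bleaching, which leaves only eggs, and larvae were taken away during adult life by settling in buffer and by hand. Older animals may have been handled more in this way, and such handling cannot be told apart from age here. The labels name no mutation, drug or diet change, and give neither the number of animals per library nor whether replicates came from separate cultures. The p-values therefore measure the spread between these libraries, which may be technical.

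In hermaphrodites of this species the germ line makes sperm late in larval life and then switches to oocytes for the rest of its activity, so young adults fertilise their own oocytes and carry embryos. The first days of adulthood are the time of egg laying. A library from whole animals mixes RNA of the germ line, of embryos held in the body, and of somatic tissues such as intestine, muscle, skin and neurons. In such bulk samples, fewer cells of a type and less RNA per cell cannot be told apart. The files give genes by WormBase identifier and pair none with a name, so tissue markers could not be looked up and no role is given for any gene. The description therefore goes by the size, direction and level of the changes.

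The libraries held 26471202 to 30458357 counts at day 3 and 29696676 to 33732477 at day 1. Of 23169 genes in the table, 15142 had enough counts to be tested, and these held at least 99.9% of the counts of every library. Levels are in CPM, a gene's count divided by its library's total and brought to a common scale by TMM. This method assumes that most genes change little between libraries. The days were far apart. The first principal component of the log2 CPM values held 92.8% of the variance and placed replicates 1, 2 and 3 of day 3 at 115.8, 118.3 and 63.8, against -96.7, -100.4 and -100.8 for replicates 1, 2 and 3 of day 1. Replicate 3 of day 3 thus stood apart from its group and toward day 1 on this axis. The second component held 3.82% of the variance. There replicate 3 of day 3 lay at -43.9, against 18.2 and 14.9 for replicates 1 and 2, and 3.09 to 3.90 for day 1. Across genes it correlated with the day 1 libraries at r = 0.908 to 0.912, and replicates 1 and 2 of day 3 at 0.857 to 0.866. Its correlation with its own group was higher than either, at 0.979 and 0.980, while replicates 1 and 2 of day 3 correlated at 0.993 and the day 1 libraries among themselves at 0.995. Genes are not independent, so these coefficients carry no p-value. The main counts of calls are given below with and without replicate 3 of day 3. Those at a 2-fold limit and those of libraries that do not overlap are given only with it.

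**Figure D1:**
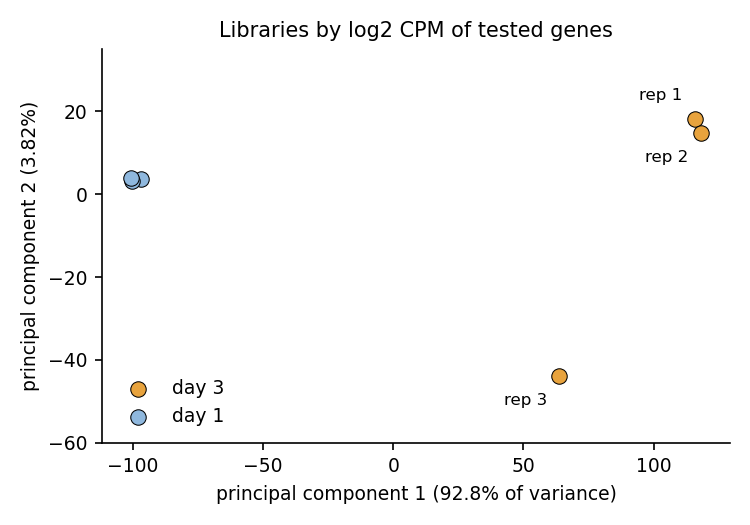
Each point is 1 library, placed by the first (horizontal) and second (vertical) principal component of log2 CPM over the 15142 tested genes, with day 3 in orange and day 1 in blue. The 3 day 1 libraries lie together near -100 on the first component, and replicate 3 of day 3, at 63.8, lies between them and replicates 1 and 2 of day 3, at 115.8 and 118.3. On the second component replicate 3 of day 3 lies below all other libraries, at -43.9.

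Most of the expressed genome differed between the days. Day 3 animals had 5079 genes at a higher level and 6091 at a lower one than day 1 animals at an adjusted p under 0.05 (edgeR quasi-likelihood test on the 6 libraries, Benjamini-Hochberg adjustment over all tested genes), which is 33.5% and 40.2% of the tested genes and 73.8% in all. The rises were small and alike, with a median log2 fold change of 0.58 and quartiles of 0.40 and 0.81. The falls reached much further, with a median of -1.13 and quartiles of -2.42 and -0.68. Changes under 2-fold made up 86.4% of the rises, or 4387 genes, and 43.8% of the falls, or 2665 genes. At a fold change of at least 2 the balance was therefore strongly toward falls, with 692 genes higher (4.57% of those tested) and 3426 lower (22.6%).

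The separation was visible in single libraries as well. For 5315 genes (35.1% of those tested) the lowest day 3 library was above the highest day 1 library, and for 6530 (43.1%) the highest day 3 library was below the lowest day 1 library, together 78.2%. Among the called genes the libraries of the days overlapped for 53 of the rises and 57 of the falls. Without replicate 3 of day 3 the counts were 5310 higher and 6320 lower, and 98.2% of the called rises and 96.0% of the called falls were called again in the same direction. The number of calls in each direction also depends on the scaling. TMM assumes that most genes change little, which may not hold where 73.8% of the tested genes were called. With upper-quartile scaling, under which all tested genes had a median of -0.28 on the log2 scale, against -0.14 with TMM, 4305 genes were higher and 6932 lower, and with median-of-ratios scaling, at a median of -0.06, 5493 and 5567. DESeq2 on the same 6 libraries called 5309 higher and 5059 lower. With all 12 libraries in the fit 4551 were higher and 2972 lower, so that rises outnumbered falls, and 48.1% of the lower genes were called lower again. None of the called genes was called in the opposite direction under any of these 4 settings.

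The falls included a separate peak of large changes, and no second peak was seen among the rises. Counted in steps of 0.5 on the log2 scale, the number of genes shrank toward larger falls until the step from -4 to -3.5, with 135 genes, and grew again to 326 genes between -5.5 and -5 and 311 between -5 and -4.5. On the side of the rises the counts shrank steadily to 23 genes between 3 and 3.5 and 9 between 3.5 and 4. In all, 1341 genes were called and at least 8-fold lower at day 3 (8.86% of the tested genes), and 120 were called and at least 4-fold higher (0.792%). Both limits were chosen with these data in view. Without replicate 3 of day 3, 1493 genes were called and at least 8-fold lower.

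**Figure D2:**
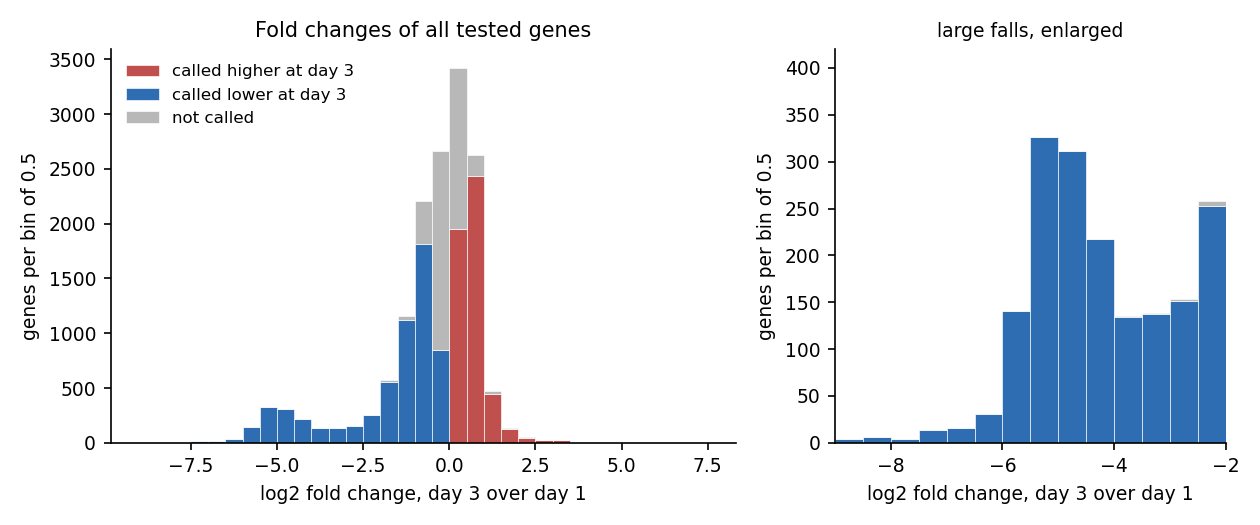
Number of genes (vertical axis) in steps of 0.5 of the log2 fold change, day 3 over day 1 (horizontal axis), with genes called higher in red, called lower in blue and not called in grey. The enlarged right panel shows the second peak, with 326 genes between -5.5 and -5, parted from the main one by a trough of 135 genes between -4 and -3.5.

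The 1341 genes with large falls had a median log2 fold change of -4.82, or -4.79 when the 30 of them with no counts in any day 3 library were set to the limit that 3 counts over the group allow. The day 3 libraries lay wholly below those of day 1 for every one of them, as an 8-fold fall nearly requires. Their level differed among the day 3 libraries. Set against the day 1 mean of each gene, the median was 1.71%, 1.47% and 6.12% for replicates 1, 2 and 3 of day 3, and 98.7%, 100.4% and 100.8% for replicates 1, 2 and 3 of day 1. The day 1 libraries were thus close to each other, while replicate 3 of day 3 kept several times as much of these transcripts as the other 2 day 3 libraries. The standard deviation per gene on the log2 scale had a median of 0.88 at day 3 and 0.10 at day 1 in this group.

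As a share of the RNA, the group with large falls was small at both ages and nearly gone at day 3. It took 0.160%, 0.153% and 0.368% of the counts of replicates 1, 2 and 3 of day 3, against 6.40%, 6.74% and 6.60% for replicates 1, 2 and 3 of day 1. The highest day 3 library was therefore still far below the lowest day 1 library, as the choice of these genes nearly requires. Within the group, the 542 genes that were at least 32-fold lower held more than the others at day 1: they took 0.0656% ± 0.056 at day 3, against 3.71% ± 0.095 at day 1 (SD over 3 libraries). The 528 genes 16-fold to 32-fold lower took 0.0816% ± 0.046 at day 3, against 1.85% ± 0.042 at day 1.

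**Figure D3:**
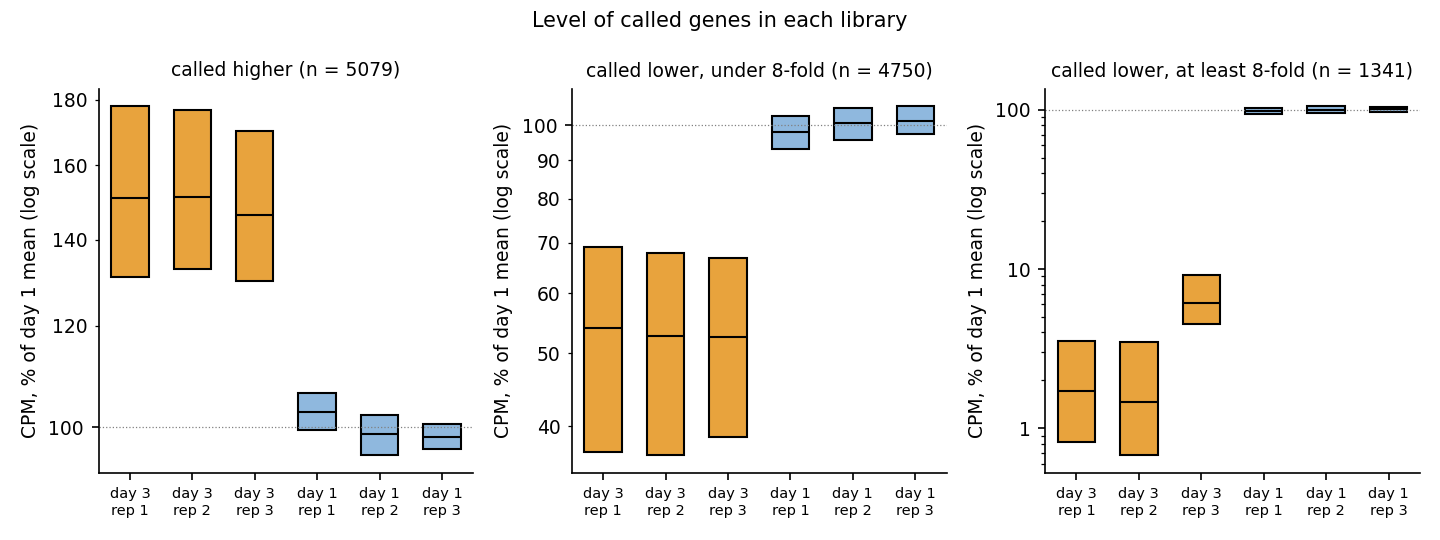
Level of the called genes in each library as a percentage of the gene's day 1 mean (vertical axes, log scale), with boxes from the lower to the upper quartile over genes and a line at the median, day 3 in orange and day 1 in blue. In the right panel replicate 3 of day 3, with a median of 6.12%, stands above replicates 1 and 2, at 1.71% and 1.47%, and in the other panels the 3 day 3 libraries are close together.

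On a log scale, replicate 3 of day 3 was nearer to day 1 mainly in the genes with large falls. It was the highest day 3 library for 84.0% of the 1341 genes, for 87.9% of the 1070 genes at least 16-fold lower, and for 33.1% of the genes that fell under 2-fold, against 36.5% of all tested genes. Its place was also measured on a scale from 0%, the mean of replicates 1 and 2 of day 3, to 100%, the day 1 mean, on log2 CPM. Over all called falls its median place was 9.71%, over all called rises 5.10%, over the 1341 large falls 27.0%, and over the falls under 2-fold -4.17%. Large falls thus stood out on the log scale. On linear CPM the median place was 4.05% for the large falls (quartiles 2.47% and 6.15%), 2.85% for falls of 2-fold to 4-fold (-8.96% and 13.1%), 6.65% for all rises (-7.92% and 19.8%), and 22.0% for rises of at least 4-fold (-17.4% and 46.9%). The large rises thus had the highest median place of these groups on the linear scale. A fall of at least 8-fold leaves every day 3 library low on that scale, so a small place with narrow quartiles is largely set by how the large falls were chosen. What sets replicate 3 of day 3 apart was not tested.

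A smaller number of genes was close to silent on one of the days. At least 10 CPM in each library of one day and under 1 CPM in each library of the other was met by 1 gene present at day 3 and by 131 genes present at day 1. The 131 genes had medians of 0.196, 0.196 and 0.780 CPM for replicates 1, 2 and 3 of day 3, against 14.1, 13.8 and 14.04 CPM for replicates 1, 2 and 3 of day 1. All 131 were called lower, as the limits nearly require. Replicate 3 of day 3 decides the size of this group: without it, 6 genes were present at day 3 and 390 at day 1. In raw counts, 35 genes had at least 10 counts in every day 1 library and 0 in every day 3 library, where 0 counts allow a level of up to 0.102 to 0.118 CPM per library. Another 88 such genes had 0 counts in replicates 1 and 2 of day 3 but some in replicate 3. In the opposite direction, 0 genes had 10 counts in every day 3 library and none at day 1.

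The rises were many, shallow and close in size in all 3 day 3 libraries. Set against the day 1 mean, the 5079 higher genes had medians of 150.9%, 151.3% and 146.4% for replicates 1, 2 and 3 of day 3, against 102.8%, 98.8% and 98.3% for replicates 1, 2 and 3 of day 1. Libraries of the same day varied little in these genes. Their median log2 standard deviation was 0.065 (day 3) and 0.074 (day 1). For all tested genes it was 0.142 (day 3) and 0.099 (day 1). The test calls so small a shift only where libraries of a day vary little, so the low spread partly follows from the choice. The higher genes took a large part of the RNA. They held 69.7%, 68.7% and 66.8% of the counts of replicates 1, 2 and 3 of day 3, against 48.1%, 45.7% and 46.4% for replicates 1, 2 and 3 of day 1. The called falls held 14.7% ± 0.78 of them at day 3, against 34.1% ± 0.94 at day 1, and the genes not called 16.9% ± 0.71 at day 3, against 19.1% ± 0.30 at day 1 (SD over 3 libraries). The called groups were chosen by direction in these same libraries, so the direction of their differences in share is largely set by that choice. Shares of counts sum to the whole library, so a lower share of some genes raises that of others, and these values say nothing of RNA per animal.

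The 120 genes at least 4-fold higher were mostly rare transcripts. Of these, 93 had a mean under 1 CPM at day 1, and 27 reached a mean of 10 CPM at day 3. Together they took 0.260% ± 0.0355 of all counts at day 3, against 0.0445% ± 0.0011 at day 1 (SD over 3 libraries). Here too replicate 3 of day 3 lay toward day 1: its median level was 595% of the day 1 mean, against 695% and 702% in replicates 1 and 2. It was the lowest day 3 library for 72 of the 120 genes (60%), against 47.4% of all called rises and 37.8% of all tested genes. For 11 of the 120 it was more than 4-fold below the mean of replicates 1 and 2, and for 3 it was no higher than the highest day 1 library. The number of large rises was 176 without replicate 3 of day 3, 242 without the filter on low counts and 66 where at least 3 libraries had to reach 1 CPM, so it depends on how rare genes are treated.

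Direction went with expression level. Genes are classed here by their mean CPM over all 6 libraries. Among the 5321 genes of 1 to 10 CPM, 12.99% were called higher and 55.6% lower, and among the 2156 genes under 1 CPM 8.77% and 39.1%. Between 10 and 1000 CPM the balance turned. Of the 5514 genes of 10 to 100 CPM, 50.7% were higher and 33.6% lower, and of the 2038 genes of 100 to 1000 CPM, 67.2% and 19.8%, against the 33.5% and 40.2% of all tested genes. This turn was also found with both other scalings and without replicate 3 of day 3, although with upper-quartile scaling the 10 to 100 CPM class was near balance, at 42.8% higher and 38.8% lower. The 113 genes of 1000 CPM and over were evenly divided, with 37 higher and 36 lower. Their balance depended on the settings: 41 were higher and 23 lower with median-of-ratios scaling, 33 and 67 with upper-quartile scaling, and 37 and 60 without replicate 3 of day 3. Small changes are harder to call at low counts, so shares of calls are not directly comparable between classes. Under 1 CPM 1123 of 2156 genes were not called, against 871 of 5514 at 10 to 100 CPM. The median log2 fold change over all genes of a class, called or not, was -0.57 both under 1 CPM and at 1 to 10 CPM. It was 0.19 at 10 to 100 CPM, 0.38 at 100 to 1000 and -0.15 at 1000 and over.

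**Figure D4:**
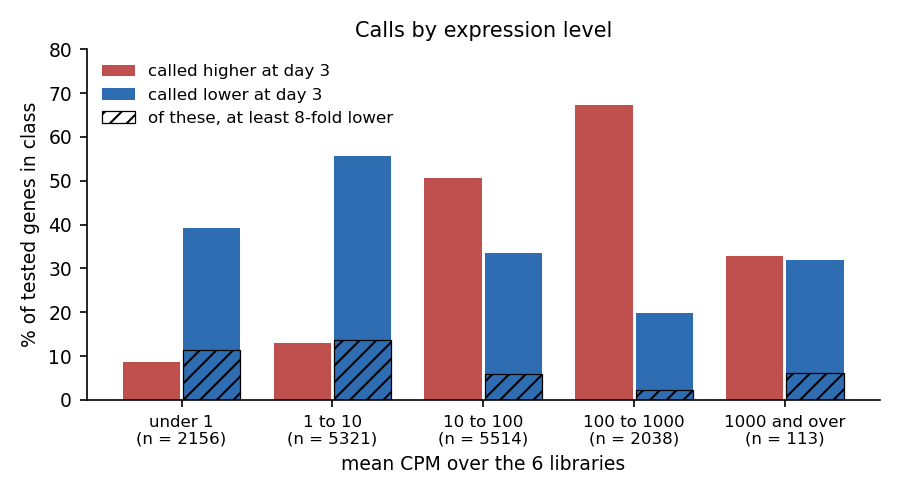
Percentage of tested genes called higher (red) and called lower (blue) at day 3 than at day 1 (vertical axis) by mean CPM over the 6 libraries (horizontal axis, with the number of genes in each class), with hatching for genes at least 8-fold lower. Falls outnumber rises under 10 CPM and rises outnumber falls between 10 and 1000 CPM.

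The large falls were found at every level. They made up 13.6% of the genes of 1 to 10 CPM, 11.4% of those under 1 CPM, 5.86% of those of 10 to 100 CPM, 2.16% of those of 100 to 1000 CPM, and 7 of the 113 genes of 1000 CPM and over. A mean over both days understates the day 1 level of a gene that is almost absent at day 3. Taken by day, the 1341 genes had a median of 0.310 CPM at day 3, against 8.05 CPM at day 1, and all tested genes a median of 7.55 CPM at day 3, against 11.98 CPM at day 1. Fewer genes reached 1 CPM at day 3, with 11618 to 11953 genes per day 3 library, against 13202 to 13216 per day 1 library. These ranges do not overlap, and replicate 3 of day 3 again had the highest number of its group.

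Expression at day 3 was also more concentrated in the 10 most abundant genes. The 10 most abundant genes of each library took 14.1%, 12.5% and 11.9% of the counts of replicates 1, 2 and 3 of day 3, against 7.99%, 8.10% and 8.33% for replicates 1, 2 and 3 of day 1. The top gene alone took between 3.20% and 4.06% at day 3, against between 2.09% and 2.28% at day 1. The shares of the 100 most abundant genes differed less. They were 27.84%, 27.09% and 27.05% for replicates 1, 2 and 3 of day 3, against 24.77%, 26.28% and 25.71% for those of day 1. Of the 10 genes with the highest mean at day 3, 7 were also among the 10 highest at day 1, and 8 were called higher and 1 lower. The leading genes were thus largely shared. Ranking by the day 3 mean favours rises. Of the 10 genes with the highest mean at day 1, 5 were called higher and 4 lower, 1 of these by at least 8-fold. Among the 100 most abundant genes of each day, 67 were shared. Of the 100 of day 3, 51 were called higher and 18 lower, and of the 100 of day 1, 19 were higher and 48 lower, 10 of them by at least 8-fold. The number of lower genes in these groups depended on replicate 3 of day 3 and on the scaling. Without that library 36 of the 100 of day 3 and 69 of the 100 of day 1 were called lower. Median-of-ratios scaling gave 6 and 35, and upper-quartile scaling 41 and 74.

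Single genes are given where they were called, reached a mean of 10 CPM on the higher day, and had the widest gap on the log2 scale between the nearest libraries of the 2 days. This rule favours genes whose difference does not rest on 1 library. Both falls it picks were among the abundant transcripts of day 1, and both rises are of genes that were at a low level at day 1.

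The widest gap among the falls was that of WBGene00030515. Its level was 6.38, 3.92 and 28.2 CPM for replicates 1, 2 and 3 of day 3, against 1783, 2020 and 1899 CPM for replicates 1, 2 and 3 of day 1. The day 1 libraries were close together and all day 3 libraries lay far below them, with replicate 3 the highest. The log2 fold change was -7.19 ± 0.97 (SE), and its adjusted p in edgeR was 0.00241. WBGene00025941 had almost the same pattern, with 4.89, 3.29 and 26.2 CPM for replicates 1, 2 and 3 of day 3, against 1645, 1848 and 1723 CPM for replicates 1, 2 and 3 of day 1. Its log2 fold change was -7.22 ± 1.03 (SE), and its adjusted p in edgeR was 0.00303. The day 3 libraries differed more than those of day 1, and without replicate 3 of day 3 the log2 fold changes were -8.52 for WBGene00030515 and -8.72 for WBGene00025941. In replicate 3 these genes kept 1.48% and 1.51% of their day 1 mean, less than the 6.12% that was the median of the large falls in that library. The rule that picked them favours a low level in the highest day 3 library, so this is largely set by the choice.

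The widest gap among the rises was that of WBGene00038529. Its level was 22.7, 22.8 and 31.2 CPM for replicates 1, 2 and 3 of day 3, against 1.13, 1.21 and 0.742 CPM for replicates 1, 2 and 3 of day 1. The log2 fold change was 4.63 ± 0.21 (SE), and its adjusted p in edgeR was 1.17e-06. Here replicate 3 of day 3 was the farthest from day 1 of its group, unlike in the falls. WBGene00024109 had 15.0, 11.8 and 15.9 CPM for replicates 1, 2 and 3 of day 3, against 0.424, 0.698 and 0.645 CPM for replicates 1, 2 and 3 of day 1. It was the 1 gene present at day 3 alone by the limits above, and rested on 15, 22 and 20 counts in the day 1 libraries. Its log2 fold change was 4.60 ± 0.20 (SE), and its adjusted p in edgeR was 7.91e-07. All of its day 3 libraries were well above those of day 1.

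**Figure D5:**
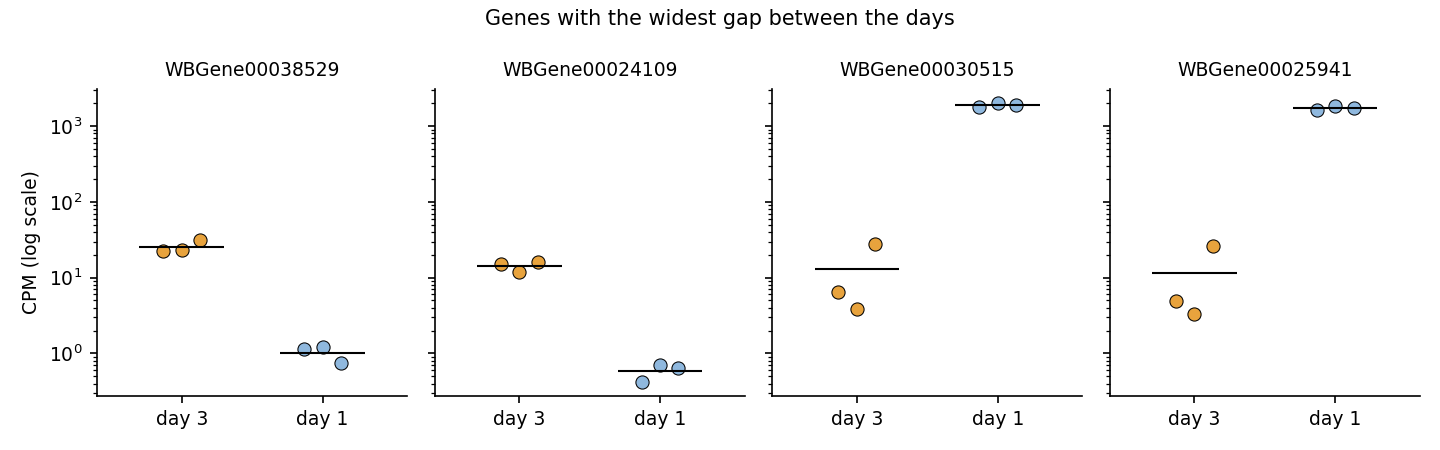
CPM (log scale) of the 2 rises and 2 falls with the widest gap between the days, with 1 point per library, day 3 in orange on the left and day 1 in blue on the right of each panel, replicates 1, 2 and 3 from left to right, and a line at the group mean. The groups are apart in all 4 genes, and in both falls replicate 3 of day 3, at 28.2 and 26.2 CPM, is above the other day 3 libraries.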

How the data were processed

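The authors deposited raw counts per gene, 1 column to a library. The tools listed, per the submitters' processing notes, are STAR, featureCounts and MultiQC. The sources used here give neither versions nor the genome build, annotation or strand setting, so genes that overlap or have near-identical copies are uncertain. Libraries were assigned by title. Same-day libraries differed beyond sampling noise (chi-square over its degrees of freedom between 4.70 and 25.6). The counts of the 6 libraries were filtered with filterByExpr, scaled by TMM and fitted with robust quasi-likelihood dispersions in edgeR 4.0.16 (R 4.3.3), with 1 mean per day and 4 residual degrees of freedom. The SE of a log2 fold change is its size over the square root of F. Log2 CPM has a prior count of 2. The test was tested on simulated data in which far fewer genes changed than here and no library stood apart. Genes were named by the widest gap between libraries, the first 2 per direction. Fold and level classes, lists and comparisons were chosen with earlier results of these data known. Alternatives were other scalings, filters, DESeq2 1.42.0, limma-voom (limma 3.58.1), all 12 libraries, a replicate block, stricter thresholds and each library left out. A reference table of locus tags matched 0 identifiers, so the planned lists of gene families and tissue markers were not used. Limits from counts of 0 cover counting error only.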

Additional observations from a re-analysis of the deposited data

How the results depend on the processing

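The share of calls that were higher was 45.5%. It was 49.7% with median-of-ratios factors, 38.3% with upper-quartile factors, 51.2% with DESeq2 and 46.8% at an adjusted p under 0.01. At a log2 fold change of at least 1 it was 16.8%, with 692 higher and 3426 lower genes. With all 12 libraries in the fit it was 60.5%, with 4551 higher and 2972 lower genes, and 1304 of the 1341 large falls were still called lower there. The cause was not tested. Leaving out each library in turn gave 4833 to 5310 higher and 5352 to 6320 lower genes, a higher share of 45.7% to 47.5%, and 131 to 390 genes present at day 1 alone and 1 to 6 at day 3 alone. With limits of 0.5 and 5 CPM, 0 genes were present at day 3 alone and 120 at day 1 alone. Over genes at least 2-fold apart the place of day 3 replicate 3 on the log2 scale was 19.9% for falls and 8.81% for rises. The number of genes at least 4-fold higher was 242 with no low-count filter, 66 with the stricter filter and 221 with all 12 libraries. The replicate numbers were not taken to pair the libraries, since deviations of same-numbered libraries correlated at 0.118, 0.0172 and 0.0377 and not every library correlated best with its own number. A replicate block gave 5005 higher and 5909 lower genes. The 4 named genes stayed called in every setting, with the largest adjusted p at 0.0238 under the block.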

Other observations

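The genes called between days 1 and 3 were followed into the later libraries, scaled together by TMM and set against the day 1 mean. The day 1 libraries are shared with the comparison that chose the genes, so these values are a description and carry no test. The 1341 genes at least 8-fold lower at day 3 stood at 0.9998%, 1.07% and 1.11% for replicates 1, 2 and 3 of day 6, and at 0.467%, 33.1% and 38.4% for replicates 1, 2 and 3 of day 9. On this scale replicates 1, 2 and 3 of day 3 stood at 1.67%, 1.42% and 5.96%. For the median of these genes all day 3 libraries thus lay above those of day 6, replicate 3 the farthest. The 2665 genes that fell under 2-fold stood at 63.7%, 64.3% and 65.5% for replicates 1, 2 and 3 of day 6, close to their level in the day 3 libraries of 62.6% to 65.5%, and at 63.0%, 104.0% and 108.4% for replicates 1, 2 and 3 of day 9. The 5079 higher genes stood at 142.6% to 147.3% in the day 3 libraries, 147.3% to 152.9% in those of day 6, and 153.5%, 96.9% and 87.4% for replicates 1, 2 and 3 of day 9. The medians of all rises and of the small falls were thus about the same at days 3 and 6, and near the day 1 level in replicates 2 and 3 of day 9. Larger rises stood above it in these libraries. The 572 genes 2-fold to 4-fold higher at day 3 stood at 134.2% and 112.6% in replicates 2 and 3 of day 9. The 120 genes at least 4-fold higher stood at 438.9% and 375.8%.

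The named rises differed after day 3. WBGene00024109 had 26.8, 27.0 and 19.3 CPM for replicates 1, 2 and 3 of day 6, and at 33.6, 5.04 and 4.95 CPM for replicates 1, 2 and 3 of day 9. WBGene00038529 had 12.3, 15.3 and 27.6 CPM at day 6 and at 8.03, 11.1 and 13.99 CPM at day 9, in the same order of replicates. The day 9 libraries of WBGene00024109 fall far apart, replicate 1 being the highest of the later libraries, while those of WBGene00038529 do not. WBGene00030515, one of the named falls, had 4.80, 6.27 and 2.75 CPM for replicates 1, 2 and 3 of day 6, and at 0, 336.0 and 419.7 CPM for replicates 1, 2 and 3 of day 9.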
